A study of Mus musculus with 6 samples.

Results

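NF-kappaB subunits, their inhibitors and a set of feedback targets, 10 genes of the 55401 in the deposited table, were followed in mouse liver after an acetaminophen overdose. They were *Nfkb1*, *Nfkb2* and *Relb* (subunits), *Nfkbia*, *Nfkbiz* and *Bcl3* (inhibitors and related proteins of the IkappaB family), *Tnfaip3* and *Birc3* (enzymes that edit or attach ubiquitin) and *Icam1* and *Tnfaip2* (other targets). The genes were taken from the table by symbol, without regard to their values, and each symbol had 1 entry. Poly(A) RNA of C57BL/6 liver was sequenced in 6 libraries, 2 in each of 3 groups. Control livers (replicates 1 and 3) were labelled as control, with no treatment named. APAP livers (replicates 1 and 3) were collected 6 h after an injection of 400 mg/kg acetaminophen (paracetamol, APAP). COS+APAP livers (replicates 2 and 3) came from mice that also had been given costunolide (COS, a sesquiterpene lactone from plants) at 20 mg/kg, first 12 h and again 40 min ahead of that dose of APAP. Age and sex are not given in the sources used here.

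NF-kappaB proteins are dimeric transcription factors that are held in the cytoplasm by IkappaB proteins until a kinase complex marks the inhibitor for destruction. The freed dimers switch on inflammatory and survival genes, and among these are their own subunits and inhibitors, so that the pathway limits itself. In liver the pathway is known from Kupffer cells, endothelium and hepatocytes, and in hepatocytes it protects against death induced by tumour necrosis factor.

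Libraries held 71115112 to 76669799 estimated counts. Hepatocyte markers were present at a summed level of 44404 to 59040 FPKM (fragments per transcript kilobase, scaled to library depth, a level that can be compared between genes). Groups followed the titles, source names and treatment labels. The protocol text assigns the pretreatment to samples 5 and 6, and in accession order these positions hold the APAP libraries. If that text were right, the groups called APAP and COS+APAP here would swap places, and each difference between them would turn its sign. COS+APAP titles also carry the prefix 2 and the others the prefix 1, so that COS and anything that goes with the prefix cannot be told apart. The comparison of APAP with control lies within prefix 1. Whether a group's libraries are from separate animals is not stated, and p-values measure the spread between these libraries, which may be technical. In whole tissue, fewer cells of a type and less RNA per cell cannot be told apart.

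Differences were tested with the quasi-likelihood test of edgeR and Benjamini-Hochberg adjustment (adjusted p) over the 10051 genes with a mean level of at least 1 FPKM over the 6 libraries, and a gene rose or fell where its adjusted p was below 0.05. Beside calls of these genes and of other pathway genes that did not hold on omission of a library, a further value is given. It is the highest adjusted p over all alternatives run, or the number of alternatives that lost or kept the call. Calls of cell type markers were not followed through the alternatives, so whether they held is not known. Of the 10 genes 7 were tested. *Nfkb2*, *Relb* and *Tnfaip3* lay below 1 FPKM on average and were fitted without this filter, over 22990 genes. Of the tested genes the lowest was *Tnfaip2* with a mean of 1.302 FPKM, and the highest of the untested was *Nfkb2* with 0.95.

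Of the tested genes *Nfkbia* and *Nfkbiz* rose after APAP and fell in COS+APAP against APAP, while *Nfkb1* and *Bcl3* rose after APAP and did not pass between the APAP groups. *Birc3* fell in COS+APAP against both other groups. *Icam1* and *Tnfaip2* passed in none of the 3 comparisons.

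*Nfkb1* encodes p105, the precursor of the p50 subunit that pairs with p65 in the classical dimer (ENSMUSG00000028163, chromosome 3, 135584655 to 135691546). Its level was 1.22 and 1.63 FPKM in control, 2.34 and 2.24 in APAP, with 1.16 and 1.65 in COS+APAP. Both APAP libraries lay above the other 4. *Nfkb1* rose in APAP against control by 0.82 ± 0.23 on the log2 scale (SE, adjusted p = 0.0318), but kept this call in 5 of 13 alternatives. It was no longer called without control replicate 1, APAP replicate 1 or APAP replicate 3 (adjusted p = 0.124, 0.121 and 0.082), on library totals without TMM scaling (0.0555), in limma with pseudocounts of 1 and 0.1 (0.0587 and 0.07), without the filter (0.0561) or with a replicate block (0.0524). In COS+APAP the log2 difference from APAP was -0.68 ± 0.23 (adjusted p = 0.0824) and that from control 0.14 ± 0.22 (adjusted p = 0.7).

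*Nfkb2* encodes p100, the precursor of p52 in the alternative pathway (ENSMUSG00000025225, chromosome 19, 46304320 to 46312385). It stood at 0.99 and 1.34 FPKM in control, 1.17 and 0.80 in APAP, with 0.59 and 0.81 in COS+APAP. APAP overlapped both other groups, and the COS+APAP libraries lay below control. The entries *4833438C02Rik* (mean 0.597 FPKM) and *Psd* (mean 0.123) overlap *Nfkb2* on the other strand, so the *Nfkb2* values are uncertain to that extent. Its log2 difference was -0.10 (95% interval -0.87 to 0.68) between APAP and control, -0.46 (-1.24 to 0.32) between COS+APAP and APAP and -0.56 (-1.34 to 0.22) between COS+APAP and control, with adjusted p of at least 0.347.

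*Relb*, the partner of p52 (ENSMUSG00000002983, chromosome 7, 19606217 to 19629438), was low throughout, with 57 to 367 estimated counts. Its level was 0.37 and 0.26 FPKM in control, 1.18 and 0.58 in APAP, with 0.21 and 0.18 in COS+APAP. The APAP libraries were the highest and did not overlap the others, with replicate 1 well above replicate 3. The COS+APAP libraries lay below control, also without overlap. The log2 difference of *Relb* was 1.63 ± 0.46 in APAP against control (adjusted p = 0.062) and -2.13 ± 0.47 in COS+APAP against APAP (adjusted p = 0.0564), neither past the test. DESeq2 called both (adjusted p = 0.00792 and 0.000667), as did edgeR on counts divided by 4 (adjusted p = 0.044 and 0.0403). Against control, COS+APAP stood at -0.50 ± 0.46 (adjusted p = 0.568).

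*Nfkbia* encodes IkappaB-alpha, the inhibitor that is degraded on activation and made anew by NF-kappaB (ENSMUSG00000021025, chromosome 12, 55489410 to 55492647). It was the highest of the 10 genes in control and APAP, at 17.1 and 12.9 FPKM in control, 29.2 and 31.1 in APAP, with 13.3 and 11.5 in COS+APAP. The APAP libraries stood apart, and the control and COS+APAP libraries overlapped. *Nfkbia* rose in APAP by 1.14 ± 0.18 on the log2 scale (adjusted p = 0.00539), or 2.01-fold in mean FPKM, and kept this call in all 13 alternatives (adjusted p up to 0.026). *Nfkbia* fell in COS+APAP against APAP by 1.26 ± 0.18 (adjusted p = 0.0112), no longer called without COS+APAP replicate 3 (adjusted p = 0.0558). Against control it did not pass (-0.12, 95% interval -0.56 to 0.31, adjusted p = 0.649).

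*Nfkbiz* encodes IkappaB-zeta, a nuclear cofactor that NF-kappaB needs for a secondary set of genes (ENSMUSG00000035356, chromosome 16, 55811375 to 55838899). Levels were 1.45 and 1.84 FPKM in control, 9.83 and 11.1 in APAP, with 2.02 and 2.99 in COS+APAP. The 3 groups did not overlap, with APAP far above, COS+APAP next and control lowest. *Nfkbiz* had the largest rise of the 7 tested genes in APAP, 2.81 ± 0.24 on the log2 scale (adjusted p = 0.00152), and the largest fall in COS+APAP against APAP, -2.04 ± 0.23 (adjusted p = 0.00786). These calls held in all 13 and all 12 alternatives. Against control, COS+APAP stood at 0.77 ± 0.23 (adjusted p = 0.0669).

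*Bcl3* encodes an IkappaB-like protein that binds p50 and p52 dimers in the nucleus (ENSMUSG00000053175, chromosome 7, 19808462 to 19822770). Its level was 7.99 and 11.6 FPKM in control, 14.9 and 19.8 in APAP, with 13.6 and 17.3 in COS+APAP. Both drug-treated groups lay above control and overlapped each other. *Bcl3* rose in APAP by 0.96 ± 0.24 on the log2 scale (adjusted p = 0.024), no longer called without control replicate 1 (adjusted p = 0.0819) or APAP replicate 3 (adjusted p = 0.1). Its log2 difference between COS+APAP and APAP was -0.14, with a 95% interval from -0.74 to 0.45 (adjusted p = 0.701), and turned to 0.05 without APAP replicate 3 and to 0.03 without COS+APAP replicate 2. COS+APAP stood 0.82 ± 0.24 above control (adjusted p = 0.0651). The antisense entries *Gm16174* (mean 2.88 FPKM) and *Gm16175* (mean 0.66) overlap *Bcl3*, and without strand their reads and those of *Bcl3* cannot be told apart.

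*Tnfaip3* encodes A20, a ubiquitin-editing enzyme that shuts off signalling upstream of the kinase complex (ENSMUSG00000019850, chromosome 10, 19000910 to 19015410). It was the lowest of the 10 genes in control, at 0.08 and 0.16 FPKM (51 and 92 estimated counts). It reached 1.41 and 0.68 FPKM in APAP (811 and 415 counts) and 0.25 and 0.18 in COS+APAP (143 and 110). No groups overlapped, and APAP replicate 1 was again above replicate 3. In APAP against control *Tnfaip3* rose by 3.26 ± 0.52 on the log2 scale without the filter (adjusted p = 0.0134), or 8.71-fold in mean FPKM. The call did not hold without control replicate 1 (adjusted p = 0.0554) or APAP replicate 1 (adjusted p = 0.0553). Between COS+APAP and APAP the log2 difference was -2.23 ± 0.49 (adjusted p = 0.0575, and 0.000205 by DESeq2), and between COS+APAP and control it was 1.04 ± 0.49 (adjusted p = 0.279).

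*Birc3* encodes cIAP2, a ubiquitin ligase at the tumour necrosis factor receptor that restrains cell death (ENSMUSG00000032000, chromosome 9, 7848699 to 7873170). It was at 2.20 and 2.55 FPKM in control, 3.31 and 2.85 in APAP, with 1.21 and 1.05 in COS+APAP. No groups overlapped, and here COS+APAP was the lowest group, as it was for *Relb*. COS+APAP was also lowest for the summed markers of every cell type listed except Kupffer and erythroid cells. The margin was wide for sinusoidal endothelial cells (27.6 and 24.4 FPKM in COS+APAP, 36.2 to 47.5 in the other libraries) and stellate cells. It was small for hepatocytes (46352 and 44404 against at least 47760), neutrophils and lymphocytes. The part of these cells in the *Birc3* values was not tested. *Birc3* did not pass in APAP against control (log2 difference 0.51 ± 0.17, adjusted p = 0.0559, and 0.0218 by DESeq2). It fell in COS+APAP against APAP by 1.43 ± 0.17 on the log2 scale (adjusted p = 0.00874), a call kept in all 12 alternatives. *Birc3* also fell against control, by 0.91 ± 0.17 (adjusted p = 0.0214), no longer called without control replicate 3 (adjusted p = 0.0903), COS+APAP replicate 2 (adjusted p = 0.0649) or COS+APAP replicate 3 (adjusted p = 0.108).

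The promoters of *Nfkbia*, *Tnfaip3* and *Birc3* are shown because the first pair was called higher in APAP and *Birc3* was not. This split is one of calls alone. *Tnfaip3* was called without the filter, and *Birc3* was near the threshold (edgeR adjusted p = 0.0559), with both APAP libraries above control. Windows of 250 bases before the start site were taken from RefSeq (GRCm38.p6), whose table held 7 of the 10 genes in 10 windows. *Nfkb1*, *Relb* and *Nfkbiz* had no window. Letters that match the kappaB consensus (3 G, a purine, any base, A or T, a pair of pyrimidines and a pair of C, 10 bases in all, both strands searched) are in capitals, and the sequences are written on the gene's strand.
Nfkbia, chr12:55492648-55492897, minus strand: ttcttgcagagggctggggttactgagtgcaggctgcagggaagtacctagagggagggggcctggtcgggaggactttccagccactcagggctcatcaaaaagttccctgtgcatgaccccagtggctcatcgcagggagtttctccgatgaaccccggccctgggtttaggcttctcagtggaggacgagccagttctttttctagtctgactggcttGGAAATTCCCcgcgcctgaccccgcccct
Tnfaip3, chr10:19015411-19015660, minus strand: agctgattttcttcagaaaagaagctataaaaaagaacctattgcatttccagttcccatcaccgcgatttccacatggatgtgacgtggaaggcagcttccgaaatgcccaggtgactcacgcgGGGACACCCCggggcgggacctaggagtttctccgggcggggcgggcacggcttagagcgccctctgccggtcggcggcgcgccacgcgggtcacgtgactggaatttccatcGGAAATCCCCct
Birc3, chr9:7873171-7873420, minus strand: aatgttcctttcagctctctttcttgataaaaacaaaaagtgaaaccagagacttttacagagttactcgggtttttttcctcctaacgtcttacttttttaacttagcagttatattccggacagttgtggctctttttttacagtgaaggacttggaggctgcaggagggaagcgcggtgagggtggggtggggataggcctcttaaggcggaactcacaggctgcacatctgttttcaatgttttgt

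The *Nfkbia* window held GGGAATTTCC on the opposite strand, 29 to 20 bases before the start. Of the 2 *Tnfaip3* windows, the one before the start that the deposited table gives is shown. There GGGGATTTCC lay on the opposite strand, 12 to 3 bases before the start, and GGGACACCCC on its own strand at 125 to 116 bases. The other *Tnfaip3* window, before a RefSeq start at 19011963, had 0 matches. No match was in the *Birc3* window. Of the 7 genes with a window 3 had a match (*Nfkbia*, *Tnfaip3* and *Nfkb2*), in 5 of the 10 windows, and so did 3.9% of all 32851 windows. These matches describe the letters alone. *Nfkb2*, with matches such as GGGAATTCCC, was at -0.10 in APAP against control on the log2 scale, and *Bcl3*, which rose, had none in its window.

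*Icam1* encodes an adhesion molecule that holds leukocytes to endothelium (ENSMUSG00000037405, chromosome 9, 21015985 to 21028817). It was at 2.35 and 2.75 FPKM in control, 2.63 and 3.16 in APAP, with 2.99 and 3.95 in COS+APAP. Neighbouring groups overlapped, and COS+APAP lay above control. Its log2 difference was 0.32 (95% interval -0.17 to 0.81, adjusted p = 0.233) in APAP against control, 0.28 (-0.20 to 0.77, adjusted p = 0.331) in COS+APAP against APAP and 0.60 (0.11 to 1.09, adjusted p = 0.0832) in COS+APAP against control. DESeq2 called the last of these (adjusted p = 0.0311).

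*Tnfaip2*, known as a gene induced by tumour necrosis factor in endothelium (ENSMUSG00000021281, chromosome 12, 111442469 to 111455018), stood apart in a single library. It was at 3.09 FPKM in control replicate 1 and at 0.74 in control replicate 3, against 0.89 and 1.17 in APAP, with 0.83 and 1.09 in COS+APAP. Control replicate 1 also held the most of *CT010467* (ENSMUSG00000106106), an entry related to 18S ribosomal RNA, with 2104 FPKM against 533 to 673 in the other libraries, and its part in the *Tnfaip2* values was not tested. The log2 difference of *Tnfaip2* in APAP against control was -0.76 ± 0.64 (adjusted p = 0.371), turned to 0.62 without control replicate 1 and reached -1.45 without control replicate 3 (adjusted p = 0.025). In COS+APAP against control it was -0.84 ± 0.64 (adjusted p = 0.388), with 0.54 and -1.53 on the same omissions (adjusted p = 0.308 and 0.049), and against APAP -0.08 ± 0.64 (adjusted p = 0.937).

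**Figure D1:**
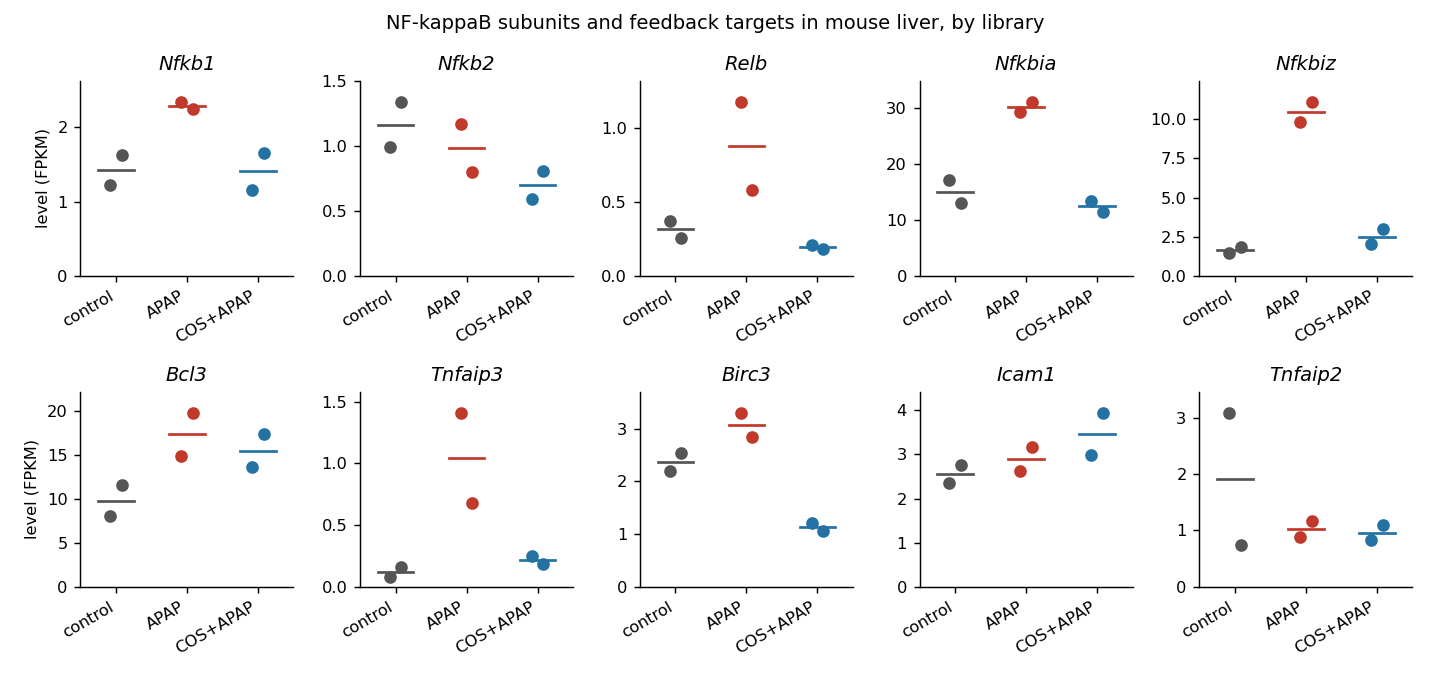
Level in FPKM (vertical axis, from 0) of each of the 10 genes in the 2 libraries of each group (points) with the group mean (line). APAP libraries are the highest for *Nfkb1*, *Relb*, *Nfkbia*, *Nfkbiz*, *Tnfaip3* and *Birc3*. COS+APAP libraries are the lowest for *Relb* and *Birc3*, and control replicate 1 stands alone for *Tnfaip2*.

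In APAP against control, 4 of the 7 tested genes rose (*Nfkb1*, *Nfkbia*, *Nfkbiz* and *Bcl3*), 0 fell and 3 did not pass, where 23.3% of all tested genes rose and 22.1% fell. The median log2 difference of the 7 was 0.82 and that of all tested genes 0.00. Without the filter 4 of the 10 rose (*Nfkbia*, *Nfkbiz*, *Bcl3* and *Tnfaip3*), where 10.7% of all genes rose and 10.4% fell. Leaving out single libraries gave 2 to 5 calls, with 2 both without control replicate 1 and without APAP replicate 3, and the fifth call, without control replicate 3, was the *Tnfaip2* difference described above. The FPKM of APAP lay above control without overlap in 7 of the 10 genes, and below it in 0, against 25.8% and 35.2% of all genes tested without the filter.

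In COS+APAP against APAP, 3 of the 7 fell (*Nfkbia*, *Nfkbiz* and *Birc3*), 0 rose and 4 did not pass, where 11.1% of all tested genes fell and 11.2% rose. The median was -0.68 for the 7 genes and 0.01 for all tested genes. The count was 2 or 3 on leaving out any single library. Without the filter the same 3 of the 10 fell, where 3.95% of all genes fell and 4.12% rose. Without overlap, 6 of the 10 genes were lower in FPKM and 0 higher, against 28.1% and 26.8% of all genes tested without the filter. This comparison shares the APAP libraries with the one before it.

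In COS+APAP against control, 1 of the 7 fell (*Birc3*) and 0 rose, where 10.3% of all tested genes fell and 10.7% rose. The median was 0.14 for the 7 and 0.02 for all tested genes. DESeq2 called 4 of the 7, with *Bcl3*, *Nfkbiz* and *Icam1* higher (adjusted p = 0.0128, 0.0165 and 0.0311), and without COS+APAP replicate 3 edgeR called 0. Without COS+APAP replicate 2 the 1 call was *Nfkbiz*, which was higher, in place of *Birc3*. Without the filter *Birc3* was the 1 gene of the 10 that fell and 0 rose, where 3.16% of all genes fell and 3.24% rose. In FPKM 4 of the 10 genes lay above control without overlap and 3 below, against 19.7% and 32.9% of all genes tested without the filter.

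**Figure D2:**
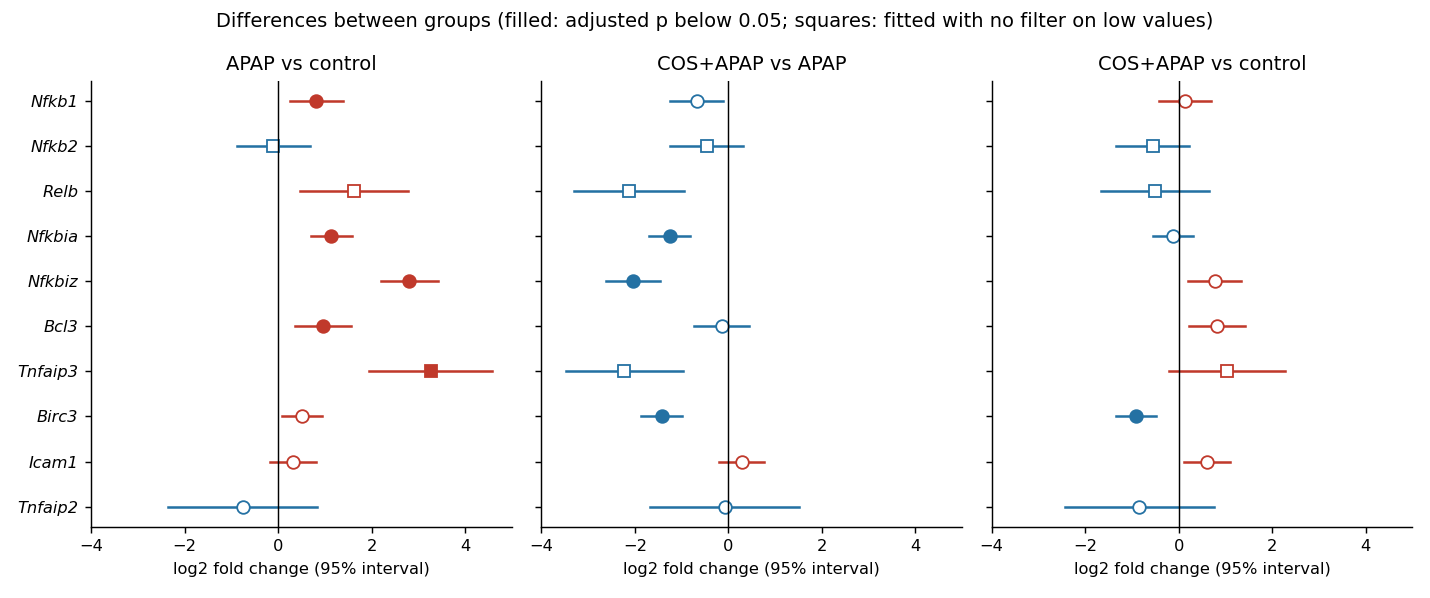
Log2 fold change with its 95% interval (horizontal axis) for the 10 genes (vertical axis) in the 3 comparisons. Filled symbols passed an adjusted p of 0.05, squares are the 3 genes fitted without the filter, and *Nfkbiz* at 2.81 and -2.04 has the largest called differences of the circles.

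The order of levels among the 10 genes was led by *Nfkbia* (15.0 ± 2.94 FPKM, mean ± SD, n = 2, as in the following) and *Bcl3* (9.80 ± 2.56) in control. In COS+APAP *Bcl3* (15.5 ± 2.61) came before *Nfkbia* (12.4 ± 1.3), a step close to their spread. *Nfkbiz* had rank 6 in control (1.65 ± 0.276) and rank 3 in APAP (10.5 ± 0.905). *Birc3* and *Icam1*, neighbours in control at 2.38 ± 0.247 and 2.55 ± 0.283, did not differ there beyond their spread. They were apart in COS+APAP, at 1.13 ± 0.113 and 3.47 ± 0.679.

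Other genes of the pathway, 107 in all and 67 of them tested, were described by role. In APAP against control 32 rose, 9 fell and 26 did not pass, with a median log2 difference of 0.64. In COS+APAP against APAP 6 rose, 18 fell and 43 did not pass (median -0.16), and in COS+APAP against control 18 rose, 5 fell and 44 did not pass (median 0.36). Of all tested genes 23.3% rose and 22.1% fell in the first comparison, 11.2% and 11.1% in the second and 10.7% and 10.3% in the third. The 9 lower in APAP and the 6 higher in COS+APAP against APAP, of 67, and several of the counts by role that follow, are near or below these shares. Of the 41, 24 and 23 calls, 23, 2 and 6 were kept in every alternative run.

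*Rela* encodes p65, the subunit that activates transcription in the classical dimer. It was at 7.22 and 6.51 FPKM in control, 19.8 and 16.4 in APAP, with 7.94 and 9.50 in COS+APAP. The APAP libraries stood apart, with the COS+APAP libraries slightly above control. *Rela* rose in APAP by 1.54 ± 0.18 on the log2 scale (adjusted p = 0.00253), fell in COS+APAP against APAP by 1.03 ± 0.17 (adjusted p = 0.0164, no longer called without APAP replicate 1 or COS+APAP replicate 2, adjusted p up to 0.0768) and stood at 0.50 ± 0.17 against control (adjusted p = 0.0948). *Rel*, which encodes c-Rel of leukocytes, lay below the filter at 0.66 and 0.46 FPKM in control, 1.66 and 1.48 in APAP, with 0.34 and 0.44 in COS+APAP. Of the other IkappaB genes only *Nfkbib* (IkappaB-beta) was tested, and it rose by 0.67 ± 0.11 in APAP and by 0.68 ± 0.11 in COS+APAP against control (adjusted p = 0.00658 and 0.014), the second no longer called without control replicate 3 or either COS+APAP library (adjusted p up to 0.0747).

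Of the receptors 6 of 10 were tested. In APAP 4 rose and 1 fell, in COS+APAP against APAP 0 rose and 2 fell. The TWEAK receptor *Tnfrsf12a* was at 1.60 and 2.96 FPKM in control, 72.7 and 43.3 in APAP, with 12.1 and 15.1 in COS+APAP. It rose in APAP by 4.81 on the log2 scale (adjusted p = 0.00165), and it fell in COS+APAP against APAP (-2.08, adjusted p = 0.0205, no longer called without APAP replicate 1 or either COS+APAP library, adjusted p up to 0.0989). Against control *Tnfrsf12a* also rose in COS+APAP, by 2.73 (adjusted p = 0.0113, and 0.0532 without COS+APAP replicate 3). The interleukin-1 receptor *Il1r1* was at 4.28 and 2.48 FPKM in control, 19.2 and 19.9 in APAP, with 32.0 and 19.1 in COS+APAP. Both drug-treated groups were high, and *Il1r1* rose against control by 2.66 in APAP and by 3.07 in COS+APAP (adjusted p = 0.00374 and 0.00717). Of the tumour necrosis factor receptors, *Tnfrsf1b* rose in APAP by 1.3 (adjusted p = 0.0112, and 0.0525 without APAP replicate 1). *Tnfrsf1a* fell in COS+APAP against APAP by 0.47 (adjusted p = 0.035, no longer called on omission of any of the 4 libraries, up to 0.144) and was 0.75 above control there (adjusted p = 0.0115, no longer called without either control library or COS+APAP replicate 3, up to 0.0622).

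Of the adaptors and ubiquitin ligases 15 of 21 were tested, with 6 higher and 2 lower in APAP, 3 lower in COS+APAP against APAP and 2 higher in COS+APAP against control. *Irak2*, a kinase-like adaptor of the interleukin-1 receptor, rose by 2.49 in APAP (adjusted p = 0.00571), and *Traf6*, the ligase below it, by 1.60 (adjusted p = 0.00153). *Traf6* was also 1.11 above control in COS+APAP (adjusted p = 0.0081), as was the Toll-like receptor adaptor *Ticam1*, by 1.44 (adjusted p = 0.00634). *Bcl10* rose in APAP by 1.16 (adjusted p = 0.0167, and 0.0808 without control replicate 3). *Bcl10* (-1.22), *Ripk2* (-0.88) and the death-domain kinase *Ripk1* (-0.69) fell in COS+APAP against APAP (adjusted p = 0.0278, 0.0335 and 0.0322), and none of these held without APAP replicate 1 or either COS+APAP library (adjusted p up to 0.146).

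In the kinase complex and the kinases around it, 10 of 12 were tested, with 5 higher and 2 lower in APAP. *Map3k8*, which encodes the kinase TPL2, was at 0.42 and 0.56 FPKM in control, 2.55 and 1.67 in APAP, with 0.59 and 0.66 in COS+APAP. It rose by 2.25 in APAP (adjusted p = 0.00384) and fell by 1.73 in COS+APAP against APAP (adjusted p = 0.0175, no longer called without APAP replicate 1 or either COS+APAP library, up to 0.0861). *Ikbkg*, the regulatory subunit NEMO, was at 0.71 and 0.92 FPKM in control, 5.32 and 5.92 in APAP, with 4.90 and 15.0 in COS+APAP. It rose against control by 2.92 in APAP (adjusted p = 0.00915, and 0.0513 without control replicate 1) and by 3.77 in COS+APAP (adjusted p = 0.0115, no longer called without either control library, up to 0.0623). *G6pdx* overlaps *Ikbkg* on the other strand (mean 1.52 FPKM), so the *Ikbkg* values are uncertain to that extent. *Tbk1* rose by 1.41 in APAP (adjusted p = 0.0336), no longer called without control replicate 3 or either APAP library (up to 0.137). In COS+APAP *Tab1* was 0.82 above APAP (adjusted p = 0.028), *Tank* 1.02 above control (adjusted p = 0.0463) and *Ikbke* at -1.01 against control (adjusted p = 0.0288), each of these no longer called on omission of 3 or 4 of the 4 libraries (up to 0.17).

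Of the negative regulators 10 of 15 were tested, with 4 higher in APAP and 2 lower in COS+APAP against APAP. *Zfp36*, whose protein speeds the decay of cytokine messages, was at 30.5 and 25.7 FPKM in control, 148 and 159 in APAP, with 27.5 and 40.0 in COS+APAP. The APAP libraries lay far above, and control and COS+APAP overlapped. *Zfp36* rose by 2.58 ± 0.22 in APAP (adjusted p = 0.00151) and fell by 2.16 ± 0.22 in COS+APAP against APAP (adjusted p = 0.00635), and each call held in every alternative. *Tnip2*, a partner of A20, rose by 2.21 in APAP (adjusted p = 0.0142, no longer called without control replicate 3 or APAP replicate 1, up to 0.0694), and the deubiquitinase gene *Otud7b* by 1.58 (adjusted p = 0.00826). *Tollip* fell by 0.51 in COS+APAP against APAP (adjusted p = 0.0291) and the deubiquitinase gene *Otulin* was 0.87 above control in COS+APAP (adjusted p = 0.0229), no longer called on omission of 4 and of 3 of the 4 libraries (up to 0.128 and 0.102). *Ank* overlaps *Otulin* on the other strand (mean 3.40 FPKM).

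Of the ligands 4 of 8 were tested, and *Tnf*, *Lta*, *Ltb* and *Cd40lg* lay below the filter. *Tnf*, the tumour necrosis factor gene, was at 0.22 and 0.22 FPKM in control, 0.08 in APAP replicate 1, listed at 0 in APAP replicate 3, and 0.14 and 0.06 in COS+APAP. *Il1b*, which encodes interleukin-1 beta, was at 1.59 and 2.20 FPKM in control, 2.28 and 0.65 in APAP, with 0.13 and 0.12 in COS+APAP. The COS+APAP libraries were the lowest, and APAP spanned control. *Il1b* fell in COS+APAP by 3.47 ± 0.69 against APAP and by 3.69 ± 0.69 against control (adjusted p = 0.0232 and 0.0208), no longer called without either COS+APAP library and, against control, without either control library as well (up to 0.105 and 0.109). In APAP against control it stood at -0.22 (adjusted p = 0.788). *Il1a* did not pass (-0.10, -1.29 and -1.39 in the 3 comparisons, adjusted p = 0.849, 0.0599 and 0.0522). *Il18* fell by 1.44 in APAP against control (adjusted p = 0.0186), where *Bco2* overlaps it on the other strand (mean 5.37 FPKM), and *Tnfsf12*, which encodes TWEAK, fell by 0.89 (adjusted p = 0.034). The entry *Tnfsfm13* overlaps *Tnfsf12* on the same strand (mean 0.76 FPKM). Neither call held without control replicate 1 or without APAP replicate 1, that of *Il18* also failed without APAP replicate 3 and that of *Tnfsf12* without control replicate 3 (up to 0.076 and 0.106). *Tnfsf12* rose by 1.16 in COS+APAP against APAP (adjusted p = 0.0293, no longer called without APAP replicate 1 or either COS+APAP library, up to 0.104). *Ltb* was at 0.09 to 0.97 FPKM, *Lta* was listed at 0 in 5 libraries and at 0.19 in APAP replicate 3, and *Cd40lg* stood at no more than 0.07.

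Of 36 further targets 20 were tested, with 11 higher and 2 lower in APAP, 4 higher and 8 lower in COS+APAP against APAP, and 8 higher and 2 lower in COS+APAP against control. The neutrophil attractant *Cxcl1* was at 1.42 and 1.97 FPKM in control, 48.5 and 41.2 in APAP, with 7.24 and 18.8 in COS+APAP. It rose by 4.87 in APAP and by 3.10 in COS+APAP against control (adjusted p = 0.00227 and 0.0133), the second no longer called without either control library (up to 0.0642). *Cxcl2* rose by 4.91 in APAP (adjusted p = 0.0213) and fell in COS+APAP, where it was listed at 0 and at 0.15 FPKM against 4.87 and 2.21 in APAP (adjusted p = 0.0319). Its calls did not hold without either control library or APAP replicate 1 (up to 0.0919) and without either APAP library (up to 0.125). *Junb*, an AP-1 subunit gene, rose by 4.24 in APAP (adjusted p = 0.00257). In COS+APAP against APAP *Ier3*, an early survival gene, fell by 4.46 (adjusted p = 0.0104, no longer called without either COS+APAP library, up to 0.0581) and *Cxcl10* fell by 3.9 (adjusted p = 0.0443, no longer called without COS+APAP replicate 2 or either APAP library, up to 0.148).

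*Lcn2*, which encodes an iron-sequestering acute phase protein, followed another order, with its highest level in COS+APAP, as *Saa3* and *Steap4* had. It was at 3.16 and 3.34 FPKM in control, 26.9 and 72.8 in APAP, with 378 and 412 in COS+APAP. Every COS+APAP library was above every APAP library. *Lcn2* rose by 7.08 in COS+APAP against control (adjusted p = 0.00336) and by 3.02 against APAP (adjusted p = 0.013), and both calls held in every alternative. *Gadd45b* was also high in both drug-treated groups, 3.19 above control in COS+APAP (adjusted p = 0.0335, no longer called without either COS+APAP library, up to 0.123).

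**Figure D3:**
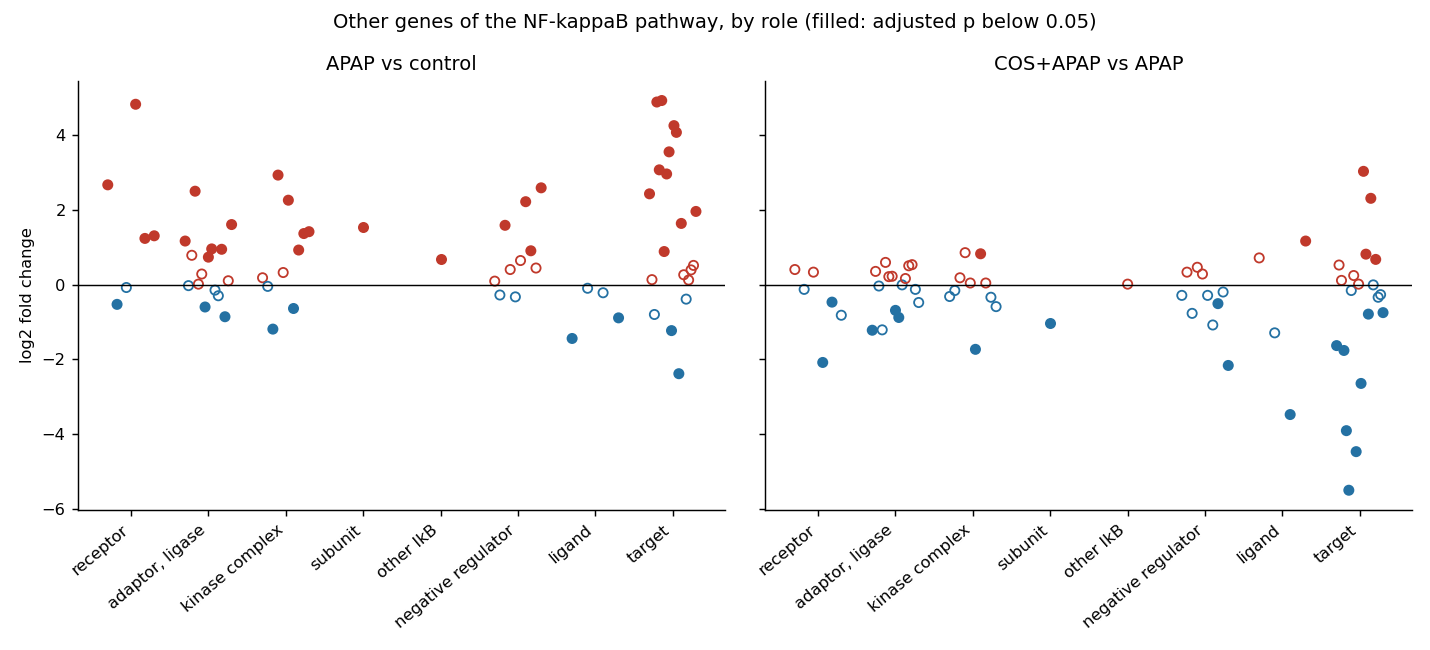
Log2 fold change (vertical axis) of the 67 tested pathway genes by role (horizontal axis) in APAP against control (left) and COS+APAP against APAP (right), 1 point per gene, filled where the adjusted p was below 0.05. Filled points lie mostly above 0 on the left (32 against 9) and mostly below 0 on the right (18 against 6).

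Genes with the most similar pattern over the 6 libraries were found by Pearson correlation of log2(FPKM + 1), as a description. These points share the 3 group means, and for *Nfkbiz* 970 of 10050 other genes had r above 0.9. The closest were *Cyp2f2* to *Nfkbia* (r = 0.9997), *Ptprk* to *Nfkbiz* (0.9983), *Prmt1* to *Bcl3* (0.9978), *Colec10* to *Birc3* (0.9952), *Tiprl* to *Nfkb1* (0.9924), *CT010467* to *Tnfaip2* (0.9776) and the pseudogene *H2-T-ps* to *Icam1* (0.9763). The size of change differed within such pairs. *Ptprk*, a receptor phosphatase gene, was at 1.74 and 1.77 FPKM in control, 2.85 and 2.93 in APAP, with 1.88 and 2.02 in COS+APAP, a far smaller range than that of *Nfkbiz*.

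Markers of other liver cells moved beside these genes, and their part in the results was not tested. Calls of the markers, given here from the main fit alone, were not followed through the alternatives. Summed neutrophil markers were at 4.08 and 6.79 FPKM in control, 32.2 and 10.8 in APAP, with 4.04 and 2.65 in COS+APAP, and monocyte markers at 25.9 and 26.5, 49.8 and 37.9, and 20.0 and 19.8. APAP replicate 1 was the higher APAP library in both, as it was in every other list except those of Kupffer cells and lymphocytes. Of the 9 neutrophil markers 3 were tested, of which *S100a9* rose in APAP and fell in COS+APAP against APAP and *S100a8* and *Retnlg* did not pass, while the defining *Ly6g* and *Camp* were listed at 0 in all 6 libraries. Of the 8 monocyte markers 2 were tested, of which *Cd14* rose in APAP (4.63) and fell in COS+APAP against APAP (-3.39). The higher sum in APAP was that of *Cd14*, at 1.21 and 0.85 FPKM in control and 31.8 and 14.5 in APAP. *Lyz2* went the other way by value, at 22.8 and 24.3 in control and 16.9 and 22.4 in APAP, and did not pass (-0.12, adjusted p = 0.536). *Fcgr1*, below the filter, was at 1.48 and 1.03 in control and 0.59 and 0.63 in APAP, and the defining *Ly6c2* and *Ccr2* did not exceed 0.20 FPKM in any library. Kupffer cell markers summed to 139 and 119 FPKM in control, 135 and 188 in APAP, with 139 and 144 in COS+APAP, and of 10 tested 3 rose and 0 fell in APAP and 1 rose and 1 fell in COS+APAP against APAP.

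Sinusoidal endothelial markers summed to 36.2 and 41.7 FPKM in control, 47.5 and 45.1 in APAP, with 27.6 and 24.4 in COS+APAP. Of 9 tested 3 rose and 0 fell in APAP against control, where *Lyve1* was at 1.13 and 1.00 FPKM in control and 8.36 and 6.45 in APAP. In COS+APAP 7 fell and 1 rose against APAP, and 5 fell and 1 rose against control. *Fcgr2b* fell by 1.32 and by 1.61 in these comparisons, while *Stab1* rose by 0.81 and by 1.34. Stellate cell markers were also lowest in COS+APAP, at 14.4 and 11.6 FPKM against 28.1 to 35.8 in the other libraries, with 3 of 4 lower than in APAP. In APAP against control 2 of the 4 rose, 0 fell and 2 did not pass. The stellate marker *Lrat*, below the filter, was at 1.66 and 1.85 FPKM in control and 0.51 and 0.57 in APAP. Lymphocyte markers, none of which was tested, summed to 1.04 to 2.91 FPKM. Cholangiocyte markers were at 28.6 and 34.6 in control, 51.4 and 35.6 in APAP, with 20.2 and 21 in COS+APAP, and erythroid markers at 298 and 269, 1492 and 1075, and 309 and 316. Of 3 cholangiocyte markers tested 1 rose, 0 fell and 2 did not pass in APAP against control. Among them *Sox9* was at 0.53 and 0.85 FPKM in control and 6.71 and 3.81 in APAP. The higher erythroid sum in APAP was that of the globin genes. The other erythroid marker, *Alas2*, was at 24.6 and 16.5 FPKM in control and 22.9 and 20.1 in APAP.

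**Figure D4:**
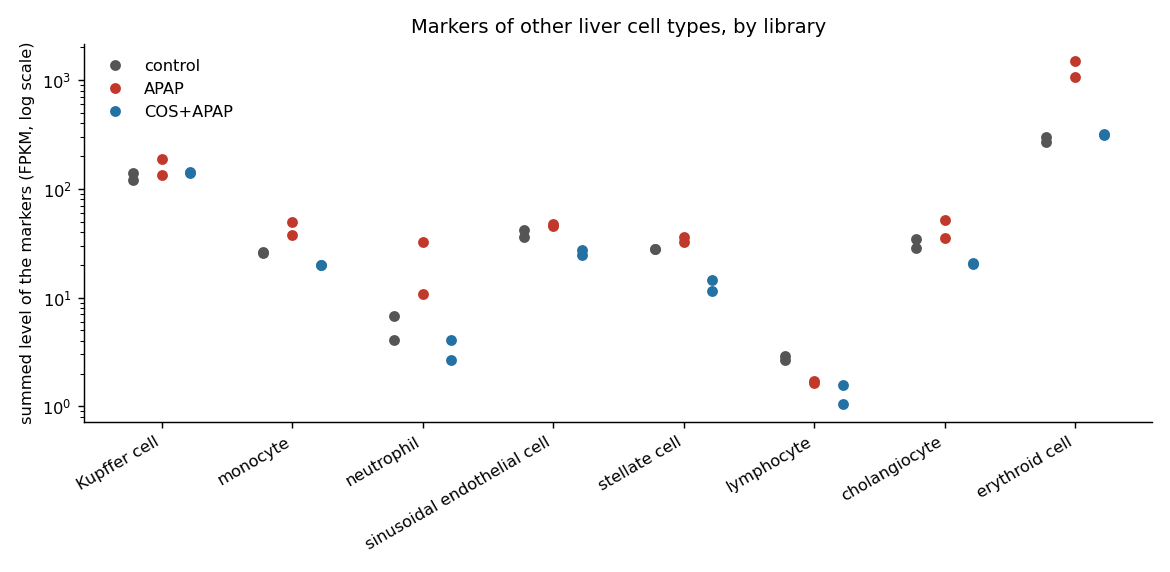
Summed level of the marker list of each cell type other than hepatocytes (vertical axis, FPKM on a log scale) in the 6 libraries, coloured by group. Sums of all lists but those of Kupffer cells and lymphocytes are highest in APAP. There 3 of 9 endothelial, 2 of 4 stellate and 1 of 3 cholangiocyte markers tested rose against control. Sums of all lists but those of Kupffer and erythroid cells are lowest in COS+APAP, by a small margin for neutrophils and lymphocytes.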

How the data were processed

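Poly(A) RNA was sequenced as paired ends, per the labels' protocols. HISAT2 2.0 and StringTie 1.3.0 are named per the submitters' processing notes. For the genome build, nothing was given in the sources used here. Per the file headers, the authors deposited FPKM values and estimated counts for each gene. Another 6 value columns could be matched to no sample and were not used. Coordinates are those of the table, and 94.2% of the 55141 genes also in GENCODE M21 (GRCm38) had identical ones, 7 of the 10 members among them.

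Estimated counts were whole numbers. A count of 4 was more frequent than its neighbours (in 766 to 990 genes of a library, against 290 to 350 with 3 and 162 to 198 with 5). Fewer fragments than counts may therefore stand behind a value. Larger multiples of 4 were not counted. Genes with a mean of at least 1 FPKM were tested with edgeR 4.0.16 (R 4.3.3), with TMM scaling, 1 model of the 3 groups over 6 libraries (3 residual degrees of freedom) and two-sided tests. SE is the log2 fold change over the square root of F, and 95% intervals use its t quantile. With 2 libraries against 2, an exact permutation test cannot go below 0.33. The script was tested on simulated data. Alternatives used RLE factors, library totals alone, DESeq2 1.42.0, limma 3.58.1 on log2(FPKM + 1) and log2(FPKM + 0.1), counts divided by 4, no filter, only the compared groups, a replicate block and each library left out. For members below the filter these were run without it, chosen after seeing the data.

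The members, lists and tests were chosen with earlier results of these data known. All members are named, and of each pathway role the 3 largest calls, *Rela*, *Rel* and all ligands. *S100a8*, *S100a9*, *Retnlg*, *Cd14*, *Lyz2*, *Fcgr1*, *Fcgr2b*, *Stab1*, *Lyve1*, *Lrat*, *Sox9*, *Alas2*, *Saa3*, *Steap4* and *Psmb9* were picked after their values were seen, as was the motif.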

Additional observations from a re-analysis of the deposited data

How the results depend on the processing

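For the 7 members tested and the 3 fitted without the filter, 316 of 361 alternative values kept direction and call, 17 lost the call, 14 gained one and 14 reversed. Reversed values, all of differences that did not pass, came mostly from single omissions and were near 0 except for *Tnfaip2*. *Tnfaip2* went to 0.62 (APAP against control) and 0.54 (COS+APAP against control) without control replicate 1, and to 0.09 and 0.11 (COS+APAP against APAP) without APAP replicate 3 or COS+APAP replicate 2, where *Bcl3* went to 0.05 and 0.03. *Nfkb2* went to 0.12 and 0.19 (APAP against control) without control replicate 3 or APAP replicate 3. In COS+APAP against control *Nfkbia* went to 0.1 without control replicate 1, and *Nfkb1* to -0.04 on library totals, -0.01 and -0.03 in limma with pseudocounts 1 and 0.1, -0.05 without control replicate 1 and -0.15 without COS+APAP replicate 3. The omissions of single libraries spanned -1.45 to 0.62, -0.3 to 0.11 and -1.53 to 0.54 for *Tnfaip2* in the 3 comparisons, -0.33 to 0.05 for *Bcl3* in COS+APAP against APAP, and -0.32 to 0.1 for *Nfkbia* and -0.15 to 0.37 for *Nfkb1* in COS+APAP against control. The cause was not tested.

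Library totals without TMM shifted the median of all genes to -0.15 in both comparisons with control, and 40% of calls in APAP and 30.4% in COS+APAP were then higher, against 51.3% and 50.9% with TMM. DESeq2 called 3552 genes in COS+APAP against APAP (edgeR 2249) and 3421 in COS+APAP against control (edgeR 2109), with 4 members there (edgeR 1). Without the filter 14 pathway genes were called in COS+APAP against APAP (24 with it). Leaving out single libraries, which leaves a lone library assumed to vary like the other groups, gave 2 to 5 members, 3044 to 3577 genes and 26 to 37 pathway genes in APAP against control, 2 to 3, 612 to 1297 and 4 to 12 in COS+APAP against APAP, and 0 to 1, 590 to 1211 and 9 to 16 in COS+APAP against control.

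Replicate numbers 1 and 3 are shared by control and APAP, but same-numbered libraries did not deviate together (r = -0.005 over 10051 genes). With the replicate block 3 members were called (4 without it), where *Nfkb1* had adjusted p = 0.0524, and *Tnfaip3* had 0.051 without the filter. No paired analysis was possible for the other comparisons because their groups share a single number. *Relb* and *Tnfaip3* had 51 to 811 estimated counts in a library and the SE of their log2 differences was 0.46 to 0.52.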
